A study of Mus musculus with 3 samples.

Results

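*Bcl11b*, *Tcf7*, *Lef1*, *Gata3*, *Runx1*, *Runx3*, *Zbtb7b*, *Tox* and *Ikzf1* are transcription factors that set up the T lineage and mark its steps in the thymus. These 9 genes, of 54838 listed, were taken by name and followed in the cortex and medulla of 3 thymus sections. The sections came from C57BL/6 female mice. Mouse KO1134 (17 weeks) and mouse KO1308 (21 weeks) were *Trp53*-/-, with the deletion carried in the germline, and mouse WT1101 (17 weeks) was *Trp53*+/+. The paper describes the KO thymus as pre-neoplastic and gives no tumour stage for either mouse by name. Transcripts were captured on slides with barcoded spots 4.8 µm apart, counted once each by a unique molecular identifier (UMI), and summed here in square bins of 27 µm, each of which can hold several cells. A bin counted as CD3-positive with at least 1 UMI of *Cd3d*, *Cd3e* or *Cd3g*, the CD3 chains of the T cell receptor. Levels are UMIs summed over bins and scaled to 1000000 UMIs of those bins (CPM), and brackets hold exact Poisson (levels) or exact conditional binomial (ratios) 95% intervals, which cover counting error only.

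Thymocytes enter as double-negative cells without CD4 or CD8 and commit to the T lineage there under Notch, *Tcf7*, *Gata3* and *Bcl11b*. They become double-positive in the cortex, where *Rag1*, *Rag2* and *Dntt* assemble the receptor, and after selection they mature in the medulla as CD4 or CD8 single-positive cells. *Zbtb7b*, which encodes ThPOK, fixes the CD4 fate and *Runx3* the CD8 fate, and each opposes the other. *Runx3* is kept low in double-positive cells, while *Bcl11b*, *Tcf7* and *Ikzf1* are expressed throughout the committed stages.

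The zones were called from epithelial genes alone. Cortical epithelium was read from *Prss16*, *Psmb11*, *Ccl25*, *Ly75* and *Tbata* and medullary epithelium from 10 genes, among them *Krt5*, *Krt14*, *Aire* and *Ccl21a*. Each bin took the list that stood higher, relative to the section's mean, in the surrounding 7 × 7 bins. The sections held 31237062 (KO1134), 21089885 (KO1308) and 41581477 (WT1101) UMIs. CD3-positive bins of the cortex numbered 4441 in KO1134, 4861 in KO1308 and 14173 in WT, with medians of 2949, 1236 and 1796 UMIs. Those of the medulla numbered 2159, 2649 and 6224, with medians of 2782, 962 and 1150 UMIs. All 3 sections expressed the CD3 genes, the defining markers of T cells. *Trp53* stood at 13.2 CPM in the cortex of KO1134, 22.4 in KO1308 and 81.4 in WT, so the level followed the labels without reaching 0 in the KO sections.

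KO1134 stood apart from the other KO section. In 99.8% of its CD3-positive cortex bins the share of *Trbc1* among UMIs of *Trbc1* and *Trbc2*, the constant genes of the T cell receptor beta chain, lay above the 99th percentile of the WT cortex (43.3%), against 10.8% of such bins in KO1308. Lymph-node-like bins, with more UMIs of B cell genes than of thymus genes around them, numbered 1959 in KO1134, 449 in KO1308 and 0 in WT and were left out. With 1 WT section no test between genotypes was possible, and both KO sections are set beside the same WT section, so their ratios are not independent. A ratio past 1.5-fold is used below as a mark of size, not of significance. In sections, fewer T cells in a bin and less RNA of a gene per T cell cannot be told apart. Summed CD3 genes stood at 782, 1438 and 1647 CPM in the cortex of KO1134, KO1308 and WT, and at 836, 1364 and 1772 CPM in the medulla.

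Positions of the members are those of GRCm38 in the GENCODE M21 annotation. *Bcl11b* (ENSMUSG00000048251) spans chr12:107910403-108003602 on the minus strand, *Tcf7* (ENSMUSG00000000782) chr11:52252371-52283014 on the minus strand, and *Lef1* (ENSMUSG00000027985) chr3:131110471-131224356 on the plus strand. *Gata3* (ENSMUSG00000015619) spans chr2:9857078-9890034, *Runx1* (ENSMUSG00000022952) chr16:92601466-92826149 and *Tox* (ENSMUSG00000041272) chr4:6686353-6991557, all on the minus strand. *Runx3* (ENSMUSG00000070691) spans chr4:135120652-135177990 on the plus strand, *Zbtb7b* (ENSMUSG00000028042) chr3:89377644-89394776 on the minus strand, and *Ikzf1* (ENSMUSG00000018654) chr11:11685003-11772926 on the plus strand. UMIs were counted per gene, so exon, intron and isoform are not known. Exons of *Lef1*, *Gata3*, *Runx1*, *Zbtb7b* and *Tox* overlap those of an antisense gene, and *Gata3* also overlaps a gene on its own strand (*9230102O04Rik*). Whether the counting used strand is not given in the sources used here, so the values of these genes are uncertain to that extent.

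Promoter sequences, from 250 bases before to 50 after a start site, were found in the RefSeq table (GRCm38.p6) for 8 of the 9 members. *Tox* had no entry. Shown are both promoters of *Runx3*, the member with the largest ratio to WT, and that of *Bcl11b*, the gene that locks in T lineage commitment. Capitals mark matches to TGTGGT, the core letters bound by Runx factors, or to CTTTGA, those bound by *Tcf7* and *Lef1*, searched on both strands, where they read ACCACA and TCAAAG.
*Runx3* distal promoter, chr4:135120395-135120694, plus strand: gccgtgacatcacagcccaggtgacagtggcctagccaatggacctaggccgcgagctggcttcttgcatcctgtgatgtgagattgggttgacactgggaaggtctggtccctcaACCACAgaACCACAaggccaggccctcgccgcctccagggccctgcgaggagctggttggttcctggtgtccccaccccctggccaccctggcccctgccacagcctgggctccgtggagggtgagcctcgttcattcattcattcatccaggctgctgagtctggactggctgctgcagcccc
*Runx3* proximal promoter, chr4:135152295-135152594, plus strand: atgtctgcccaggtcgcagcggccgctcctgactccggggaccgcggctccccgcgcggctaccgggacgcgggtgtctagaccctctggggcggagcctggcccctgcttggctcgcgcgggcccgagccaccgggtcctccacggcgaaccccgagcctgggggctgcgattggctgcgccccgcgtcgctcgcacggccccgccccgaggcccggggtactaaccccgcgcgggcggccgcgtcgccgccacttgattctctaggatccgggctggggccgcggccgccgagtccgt
*Bcl11b* promoter, chr12:108003365-108003664, minus strand: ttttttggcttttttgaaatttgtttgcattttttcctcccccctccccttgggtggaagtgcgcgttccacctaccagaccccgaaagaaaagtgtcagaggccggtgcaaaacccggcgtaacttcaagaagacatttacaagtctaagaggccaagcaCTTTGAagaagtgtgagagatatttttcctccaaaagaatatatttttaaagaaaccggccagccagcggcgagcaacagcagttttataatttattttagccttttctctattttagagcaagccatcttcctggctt
The distal promoter of *Runx3* held 2 neighbouring matches to the Runx letters, starting at positions -134 and -126 from the start site, and the proximal promoter held none. *Bcl11b* held 1 match to the *Tcf7* and *Lef1* letters, at -89. Of 16 member promoters, 3 held the Runx letters (those of *Runx3*, *Runx1* and *Zbtb7b*) and 2 the *Tcf7* and *Lef1* letters (those of *Bcl11b* and *Lef1*), beside 16.8% and 16% of all 32851 promoters. These are matches of letters, not binding sites, and the counts do not tell which promoter a transcript came from.

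In the WT section the fate factors *Zbtb7b* and *Runx3* were higher in the medulla than in the cortex. From cortex to medulla 2 of 9 members were past 1.5-fold higher, *Zbtb7b* and *Runx3*, where 18.7% of 16225 genes were, and 0 were past 1.5-fold lower, where 4.28% were. *Zbtb7b* stood at 9.40 CPM in the cortex and 36.4 in the medulla, a ratio of 3.88 (3.26 to 4.62). *Runx3* stood at 7.64 and 21.6 CPM, a ratio of 2.82 (2.28 to 3.48). Both fate factors were thus low in WT cortex, and the other members differed less between the zones. *Lef1*, the partner of *Tcf7* in opening T lineage genes, stood at 192.5 and 250.3 CPM, and *Tox*, a factor of the CD4 lineage, at 95.3 and 113 CPM. *Bcl11b* stood at 745 CPM in the cortex and 639.8 in the medulla, *Tcf7* at 824 and 593, *Ikzf1*, which encodes Ikaros, at 448 and 408, and *Runx1* at 108 and 86.1 CPM. *Gata3*, needed for commitment and again for CD4 cells, was nearly level at 95 and 99.4 CPM.

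The zones are not pure at this bin and window size. The 7 double-positive genes (*Rag1*, *Rag2*, *Dntt*, *Arpp21*, *Aqp11*, *Cd8a* and *Cd8b1*) summed to 5943 CPM in WT cortex and still to 4186 CPM in WT medulla, where the medullary epithelial genes stood at 825 CPM, against 2006 in KO1134 and 1874 in KO1308. The members were therefore also read along the cortical share of the zone score, from 0 (medullary genes only) to 1. In the most medullary range of the WT section (a share under 0.2, 1998 bins), *Zbtb7b* stood at 65.4, *Runx3* at 35.6 and *Lef1* at 293 CPM, and in the most cortical (a share of 0.8 or more, 2497 bins) at 7.0, 7.0 and 174 CPM. *Tcf7* ran the other way, from 344 to 809 CPM. *Bcl11b* was highest in the middle range, at 798 CPM.

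**Figure D1:**
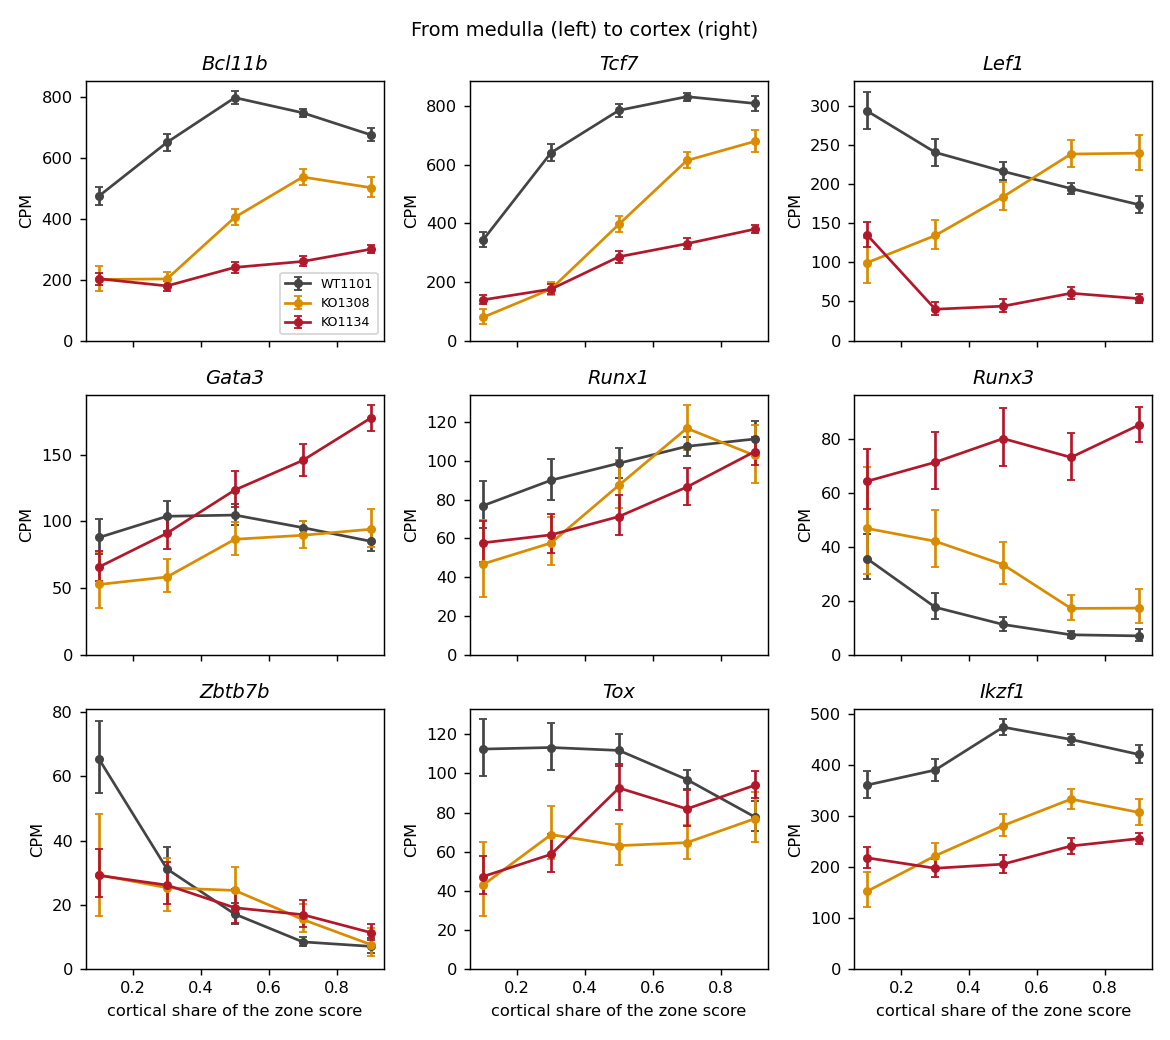
CPM of the 9 members (vertical axes) in CD3-positive bins grouped by the cortical share of the zone score (horizontal axes, 5 ranges from medulla at left to cortex at right) in WT1101 (grey), KO1308 (orange) and KO1134 (red), with 95% Poisson intervals. *Zbtb7b* and *Runx3* of WT climb toward the medulla, to 65.4 and 35.6 CPM, whereas *Runx3* of KO1134 stays between 64.4 and 85.3 CPM throughout.

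In the cortex of KO1134 *Bcl11b*, *Tcf7*, *Lef1* and *Ikzf1* were low while *Gata3* and *Runx3* were high. Past 1.5-fold lower than WT were 4 of 9 members (*Bcl11b*, *Tcf7*, *Lef1* and *Ikzf1*), where 20.2% of 15064 genes were, and past 1.5-fold higher were 2 (*Gata3* and *Runx3*), where 24.3% were. The median ratio was 0.887 over the members and 1.01 over all genes. In the cortex of KO1308, 0 members were past 1.5-fold lower, where 9.98% of genes were, and 2 (*Runx3* and *Zbtb7b*) past 1.5-fold higher, where 26.1% were, with medians of 0.963 and 1.11.

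Markers of several other cell types were also higher in the KO cortices. The 3 plasma cell genes summed to 546 CPM in KO1134, 974 in KO1308 and 213.5 in WT, the 3 B cell genes to 52.6, 59.2 and 28.4, the 4 adipocyte genes to 248, 275 and 89.0, the 4 fibroblast genes to 162.5, 171.5 and 75.7, and the 10 medullary epithelial genes to 277, 488 and 139 CPM. All of these genes were detected in each section. The 3 endothelial genes stood at 82.6, 116.5 and 106 CPM. The 2 erythroid genes were lower in the KO sections, at 22.8, 1.69 and 26.65 CPM in the cortex and 16.6, 5.29 and 131 CPM in the medulla. The 4 muscle genes had 152, 186 and 40 UMIs, with *Myh6* at 0 in KO1134 and *Acta1* at 0 in KO1308. In the medulla the B cell, plasma cell, fibroblast and adipocyte sums of the KO sections lay between 1.98 and 4.59 times WT. The part of these cells in the member levels was not tested.

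*Bcl11b* stood at 284 CPM (275 to 294) in the cortex of KO1134, 510.4 (493 to 528) in KO1308 and 745 (735 to 755.5) in WT. The 3 intervals do not overlap, and the KO sections stood at 0.382 (0.368 to 0.395) and 0.685 (0.660 to 0.711) of WT. *Tcf7*, which encodes TCF-1 and starts the T program, had the same order, at 358 (348 to 369), 599 (580.2 to 618) and 824 (813 to 835) CPM. KO1134 stood at 0.435 (0.421 to 0.449) and KO1308 at 0.727 (0.702 to 0.752) of WT. *Ikzf1*, a restraint on early lymphoid growth, followed them at 247 (239 to 256), 319 (306 to 333) and 448 (440.1 to 456) CPM, ratios of 0.552 (0.530 to 0.574) and 0.713 (0.680 to 0.747). These genes ranked the sections alike, with KO1134 lowest and WT highest.

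*Lef1* split the KO sections. It stood at 55.1 CPM (51.1 to 59.3) in the cortex of KO1134, 230.1 (219 to 242) in KO1308 and 192.5 (187 to 198) in WT, so KO1134 lay far below WT, at 0.286 (0.264 to 0.310), and KO1308 slightly above, at 1.20 (1.13 to 1.27). *Lef1* was thus the member with the lowest ratio in KO1134, and KO1134 held 0.240 (0.219 to 0.262) of the level of KO1308. *Lef1* and *Tcf7*, which share a DNA-binding domain and many targets, stood on opposite sides of WT in KO1308.

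*Gata3* was high in KO1134 and close to WT in KO1308. It stood at 163 CPM (156 to 170) in KO1134, against 91.5 (84.3 to 99.2) in KO1308 and 95 (91.3 to 98.8) in WT. The ratio was 1.71 (1.62 to 1.82) in KO1134 and 0.963 (0.880 to 1.05) in KO1308, and KO1134 exceeded KO1308 1.78-fold (1.62 to 1.95). *Runx1*, which acts with *Cbfb* in double-negative and double-positive cells, stood at 95.6 (90.3 to 101), 107 (99.5 to 116) and 108 (104 to 112) CPM. Its ratio in KO1134, 0.887 (0.829 to 0.949), was 0.563 (0.413 to 0.753) after each bin was thinned to 500 UMIs. For that ratio CD3-positive bins were called again from the thinned counts, so the bins differ. Of the bins that were CD3-positive before thinning, 4.34% in KO1134 and 5.39% in WT held a *Runx1* UMI after it. *Tox* stood at 91.1 (85.9 to 96.5), 69.7 (63.5 to 76.5) and 95.3 (91.6 to 99.1) CPM, so KO1308 was the lower KO section.

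*Runx3* had the largest ratio of the members. It stood at 81.7 CPM (76.8 to 86.8) in the cortex of KO1134 from 1049 UMIs, at 18.7 (15.5 to 22.3) in KO1308 from 122 UMIs, and at 7.64 (6.62 to 8.76) in WT from 204 UMIs. KO1134 exceeded WT 10.7-fold (9.20 to 12.5), KO1308 exceeded WT 2.45-fold (1.94 to 3.08), and the KO sections differed from each other 4.37-fold (3.62 to 5.31). In the 4 parts into which each cortex was divided at its median position, *Runx3* ran from 71.8 to 88.9 CPM in KO1134, from 15.3 to 20.4 in KO1308 and from 4.62 to 10.9 in WT. The lowest part of KO1134 lay above the highest part of each other section. The share of CD3-positive cortex bins with a *Runx3* UMI was 19.2% in KO1134, 2.37% in KO1308 and 1.33% in WT, and after thinning each bin to 500 UMIs, with 17, 403 and 443 shallower bins left out, 4.05%, 0.897% and 0.408%.

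Other cells that express *Runx3* were measured beside it. The natural killer and innate lymphoid genes (*Ncr1*, *Klrb1c* and *Nkg7*) summed to 110 CPM in the cortex of KO1134, 33.9 in KO1308 and 25.04 in WT. Nearly all of this was *Nkg7*, a gene of cytotoxic granules that CD8 T cells also express, at 105, 26.5 and 19.2 CPM. *Klrb1c* stood at 4.98, 7.20 and 5.84 CPM, and *Ncr1*, the defining marker, at 4 UMIs in KO1134 and 1 UMI in each other cortex. The 6 myeloid genes (*Lyz2*, *C1qa*, *C1qb*, *Cd68*, *Csf1r* and *Itgax*), all detected, summed to 958, 580 and 412 CPM. *Runx3* stood at 80.6 CPM in the CD3-negative bins of the KO1134 cortex, much as in the CD3-positive bins, so the CD3 rule did not set its level. In CD3-negative bins outside both zones *Runx3* stood at 28.8 CPM (18 UMIs) in KO1134 and 2.12 CPM (2 UMIs) in KO1308, and had 0 of 72211 UMIs in WT, which allows up to 41.5 CPM if 3 UMIs are taken as the limit of a count of 0. The part of these cells in the *Runx3* levels was not tested.

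*Zbtb7b*, the opponent of *Runx3*, stood at 13.9 CPM (11.9 to 16.1) in the cortex of KO1134, 14.4 (11.6 to 17.6) in KO1308 and 9.40 (8.27 to 10.6) in WT. The ratios were 1.48 (1.21 to 1.79) and 1.53 (1.20 to 1.95), on both sides of the 1.5-fold mark and with overlapping intervals. These are low counts (178, 94 and 251 UMIs), and in the most cortical range of the zone score the 3 sections stood at 11.3, 7.58 and 7.0 CPM. CD3-negative bins outside both zones held *Zbtb7b* at 28.8 CPM in KO1134 (18 UMIs) and 57.2 in KO1308 (54 UMIs), with 1 UMI in WT. The part of other cells in the *Zbtb7b* levels of the cortex was not tested.

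**Figure D2:**
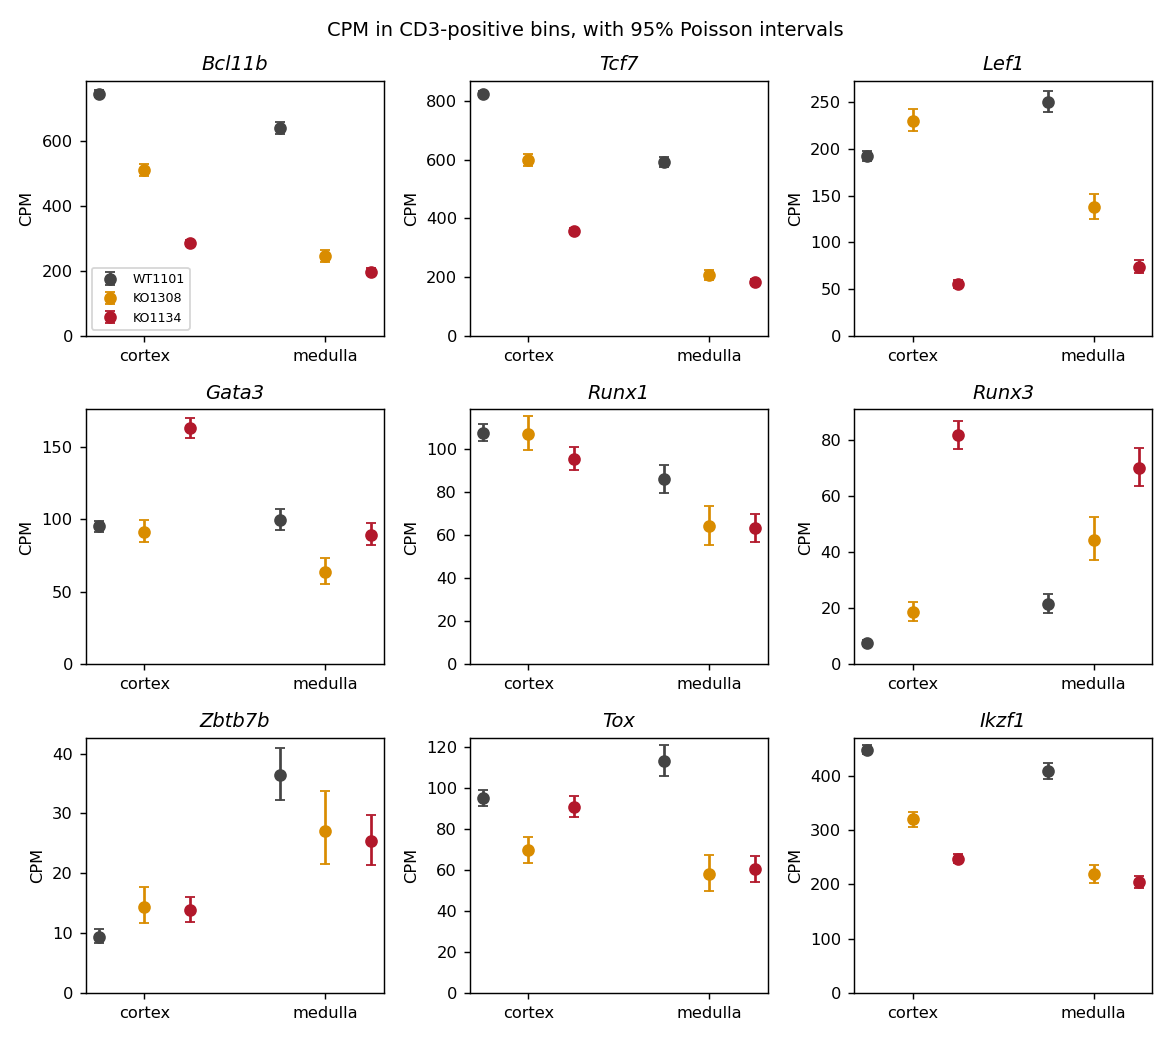
CPM of each member (vertical axes, from 0) in CD3-positive bins of the cortex and medulla in WT1101 (grey), KO1308 (orange) and KO1134 (red). Points are sums over all such bins of 1 section and bars are 95% Poisson intervals, which cover counting error only. *Bcl11b*, *Tcf7* and *Ikzf1* are lowest in KO1134 in both zones, and *Runx3* is highest there, at 81.7 and 70.0 CPM.

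In the medulla most members stood below WT in each KO section. Past 1.5-fold lower than WT were 5 of 9 members in KO1134 (*Bcl11b*, *Tcf7*, *Lef1*, *Tox* and *Ikzf1*), where 18.5% of 13127 genes were, and 6 in KO1308 (those and *Gata3*), where 15.5% were. Past 1.5-fold higher was 1 member in each, *Runx3*, where 17.7% and 23.0% of genes were. The median ratio of the members was 0.534 and 0.550, beside 0.944 and 1.03 over all genes.

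*Bcl11b* stood at 198 CPM (187 to 209) in the medulla of KO1134 and 245 (228 to 263) in KO1308, against 639.8 (622 to 658) in WT. *Tcf7* stood at 183.5 (173 to 195), 206 (190.5 to 223) and 593 (576 to 610.3) CPM. Their ratios to WT, 0.309 and 0.383 for *Bcl11b* and 0.310 and 0.348 for *Tcf7*, differed less between the KO sections than in the cortex. With the zones of every section scaled to the WT means, the ratios of KO1308 were 0.613 and 0.656. *Tox* stood at 60.6, 58.2 and 113 CPM, ratios of 0.534 (0.471 to 0.605) and 0.514 (0.434 to 0.605), and *Ikzf1* at 204, 219 and 408 CPM, ratios of 0.4995 (0.467 to 0.534) and 0.536 (0.492 to 0.583). *Gata3* stood at 89.4, 63.8 and 99.4 CPM and *Runx1* at 63.2, 64.2 and 86.1 CPM. In KO1134 the low side of *Gata3* was within counting error (ratio 0.900, 0.804 to 1.01).

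*Lef1* in the medulla stood at 73.5 CPM (66.8 to 80.7) in KO1134, 138 (125 to 152) in KO1308 and 250.3 (239 to 262) in WT. KO1134 was uneven: its 4 parts ran from 32.3 to 136 CPM, against 128 to 165 in KO1308 and 243 to 268 in WT. *Lef1* stood at 229.5 CPM in the lymph-node-like bins that were left out of KO1134. When *Ccl21a*, a chemokine gene that lymph nodes also express, was taken out of the medullary list, the ratio of medulla to cortex in KO1134 turned from 1.33 to 0.699. The ratio of KO1134 to WT in the medulla, 0.294 (0.264 to 0.326), was 0.162 without *Ccl21a*, 0.584 with the lymph-node-like bins kept and 0.460 over bins in which one zone score was over 4 times the other, below WT in each case.

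*Runx3* in the medulla stood at 70.0 CPM (63.4 to 77.0) in KO1134, 44.3 (37.1 to 52.5) in KO1308 and 21.6 (18.4 to 25.1) in WT, so KO1134 exceeded WT 3.25-fold (2.71 to 3.91) and KO1308 2.06-fold (1.63 to 2.60). The intervals of the 3 sections do not overlap. When only bins whose one zone score was over 4 times the other were kept, the ratios were 1.81 and 1.32. *Zbtb7b* stood at 25.3 (21.5 to 29.7), 27.1 (21.6 to 33.7) and 36.4 (32.3 to 41.0) CPM, ratios of 0.695 (0.567 to 0.851) and 0.744 (0.575 to 0.956), below WT here and above WT in the cortex. With that 4-fold margin they were 0.445 and 0.448. In the most medullary range of the zone score (715 bins of KO1134 and 337 of KO1308) *Zbtb7b* stood at 29.1 CPM in KO1134 and 29.3 in KO1308, against 65.4 in WT, while *Bcl11b* stood at 203, 201 and 475.5 CPM. *Runx3* stood there at 64.4 CPM (54.0 to 76.3) in KO1134, 46.9 (30.0 to 69.7) in KO1308 and 35.6 (27.9 to 44.7) in WT. In this range the intervals of KO1308, with 24 *Runx3* UMIs, and WT overlap. Natural killer and innate lymphoid genes summed to 170, 107 and 52.0 CPM in the medulla of KO1134, KO1308 and WT, of which *Nkg7* made up 155, 91.3 and 43.1 CPM, with *Ncr1* at 6, 0 and 0 UMIs. Myeloid genes summed to 2028, 1345 and 1260 CPM, and the part of either in the *Runx3* levels was not tested.

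*Runx3* was not higher in the medulla than in the cortex of KO1134. Its ratio of medulla to cortex was 0.857 (0.763 to 0.961) in KO1134, against 2.37 (1.84 to 3.05) in KO1308 and 2.82 (2.28 to 3.48) in WT. *Zbtb7b* kept its order, with ratios of 1.83 (1.46 to 2.28) in KO1134 and 1.88 (1.38 to 2.56) in KO1308. Past 1.5-fold higher in medulla were 1 member (*Zbtb7b*) in KO1134, where 19.9% of genes were, and 2 (*Zbtb7b* and *Runx3*) in KO1308, where 20.2% were. Past 1.5-fold lower in medulla were 4 in KO1134 (*Tcf7*, *Gata3*, *Runx1* and *Tox*), where 14.5% of genes were, and 4 in KO1308 (*Bcl11b*, *Tcf7*, *Lef1* and *Runx1*), where 14.7% were. The median ratio was 0.696 over the members and 1.00 over all genes in KO1134, 0.684 and 0.996 in KO1308, and 1.05 and 1.04 in WT. *Lef1* ran opposite ways in the sections of KO1308 and WT, with ratios of 0.598 (0.535 to 0.667) and 1.3 (1.23 to 1.37).

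The same genes were also counted per CD3 UMI, over all kept bins of a zone, which sets each member beside the T cell content that CD3 transcripts show. CD3 transcripts themselves were lower in the KO sections, so this measure shifts every member up, and it would shift them too if each T cell made less CD3 RNA. The measure also takes in CD3-negative bins, which add member UMIs but no CD3 UMIs. These were 30.15% of cortex bins in KO1134, 43.0% in KO1308 and 17.5% in WT. In the medulla they were 31.9%, 58.9% and 34.4%. The lower CD3 level and the added bins were not separated. In the cortex *Bcl11b* came to 450.4 UMIs per 1000 CD3 UMIs in KO1134, 513 in KO1308 and 508 in WT, ratios of 0.886 (0.858 to 0.915) and 1.01 (0.978 to 1.04). *Tcf7* came to 571, 574 and 554, ratios of 1.03 and 1.04. *Ikzf1* had ratios of 1.29 and 1.06. *Lef1* stayed low in KO1134, at 0.660, and stood above WT in KO1308, at 1.85.

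Per CD3 UMI, *Runx3* stood 25.7-fold above WT in the cortex of KO1134 and 4.07-fold in KO1308. *Gata3* stood 4.08-fold and 1.52-fold above WT, *Runx1* 2.11-fold and 1.44-fold, *Zbtb7b* 3.55-fold and 2.13-fold, and *Tox* 2.25-fold and 1.10-fold. Of the members, *Bcl11b* and *Lef1* alone stayed below WT in the cortex of KO1134 on this scale. In the medulla *Runx3* stood 6.38-fold and 3.36-fold above WT, *Gata3* 1.90-fold and 1.31-fold and *Runx1* 1.59-fold and 1.42-fold. *Bcl11b*, at 0.635 and 0.778, and *Tcf7*, at 0.668 and 0.670, stayed below WT in the medulla of both KO sections, and *Tox* and *Ikzf1* had ratios from 1.01 to 1.15. *Runx3* was thus above WT on both scales in every zone of both KO sections. In the cortex *Tcf7* was not below WT on this scale in either KO section, and *Bcl11b* was below WT in KO1134 only, by less than the 1.5-fold mark.

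**Figure D3:**
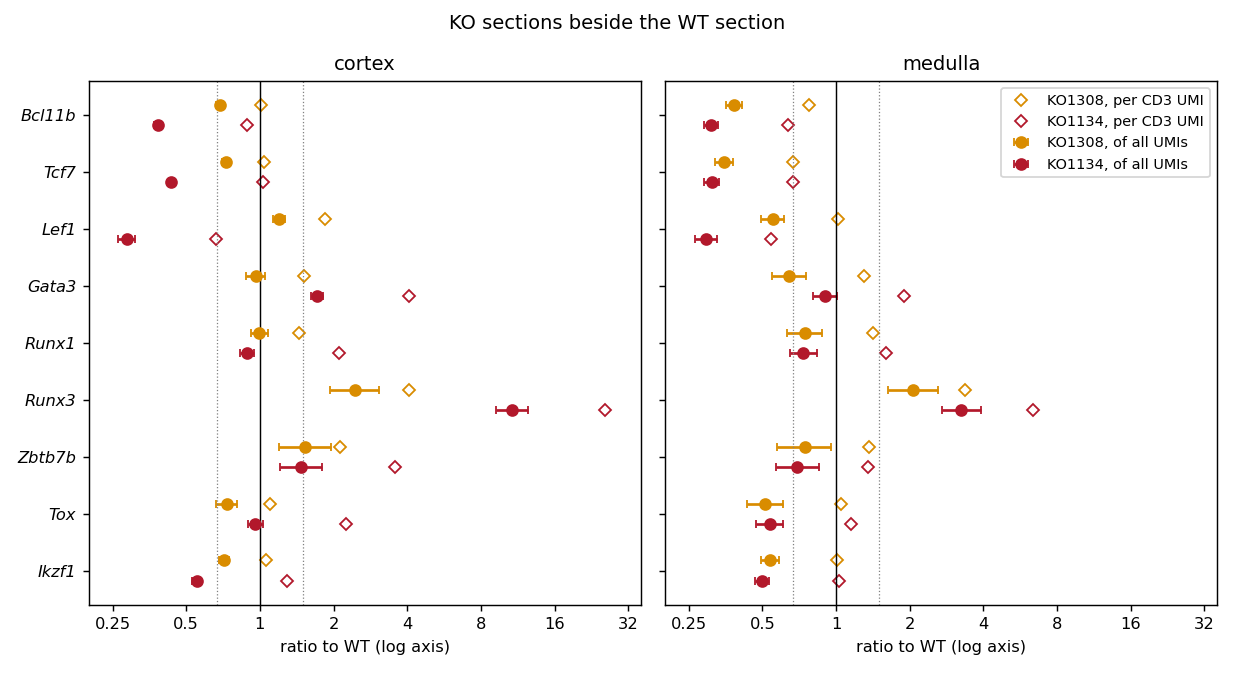
Ratio of each KO section to WT (horizontal, log axis) for the 9 members in the cortex (left) and medulla (right), KO1308 in orange and KO1134 in red. Filled points with 95% intervals are ratios of CPM and open diamonds are ratios per CD3 UMI, with dotted lines at 1.5-fold. *Runx3* of the KO1134 cortex lies at 10.7 and 25.7, and most diamonds of the medulla lie at or right of 1.

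The thymocyte stage was read from 4 gene lists. Double-negative genes (*Il2ra*, *Kit*, *Dtx1*, *Notch3* and *Ptcra*) summed to 406 CPM in the cortex of KO1134, 312 in KO1308 and 169.5 in WT, and the 7 double-positive genes to 1083, 3514 and 5943 CPM. Mature single-positive genes (*S1pr1*, *Il7r*, *Ccr7*, *Ms4a4b* and *Gimap3*) summed to 476, 290.5 and 117 CPM, and selection genes (*Cd69*, *Itm2a*, *Cd5* and *Cd53*) to 461, 238 and 408 CPM. The selection genes parted in the KO1134 cortex, with *Cd53* at 3.12 times WT, *Itm2a* at 0.999, *Cd5* at 0.682 and *Cd69* at 0.480. Its selection sum above WT thus came from *Cd53* alone. In the cortex of KO1134 all 7 double-positive genes were past 1.5-fold below WT, where 20.2% of all genes were, and 3 of 5 double-negative genes (*Il2ra*, *Kit* and *Dtx1*) and 4 of 5 mature genes were past 1.5-fold above it, where 24.3% were. In KO1308, 5 of 7 double-positive genes were past 1.5-fold below WT, where 9.98% of all genes were, and 4 of 5 double-negative and 3 of 5 mature genes past 1.5-fold above, where 26.1% were.

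Low coreceptors and receptor recombination genes accompanied the KO1134 member pattern. *Cd4* stood at 25.3 CPM in its cortex, against 298 in KO1308 and 253 in WT, *Cd8a* at 64.7, 918 and 1979, and *Rag1* at 50.9, 442 and 685 CPM. Among the early genes, *Kit*, the stem cell factor receptor, stood at 61.0, 20.4 and 3.93 CPM and *Il2ra*, which encodes CD25, at 175, 65.6 and 33.5 CPM. *Ptcra*, the partner chain of beta selection, went against the rest of its list, at 4.36, 12.9 and 18.8 CPM. The mature genes differed in size. *Il7r*, which double-negative cells also express, stood at 318, 98.3 and 58.8 CPM, *Ms4a4b* at 96.3, 79.7 and 24.9, *Gimap3* at 32.1, 86.6 and 13.2, *S1pr1*, the receptor for thymic exit, at 13.1, 12.4 and 8.35, and *Ccr7*, the receptor that draws thymocytes to the medulla, at 16.6, 13.5 and 11.8 CPM. In KO1134 *Ccr7* alone of these was not past 1.5-fold above WT, and in KO1308 *S1pr1* and *Ccr7* were not. Per CD3 UMI *Cd8a* stood at 0.0764 of WT in KO1134 and 0.668 in KO1308, and *Rag1* at 0.175 and 0.921. By these lists the KO1134 cortex held double-positive genes at 0.182 of WT and mature genes at 4.07 times WT, together with high *Kit*, *Il2ra*, *Gata3* and *Runx3*. Its double-positive genes fell unevenly, from 0.022 of WT (*Cd8b1*) and 0.024 (*Rag2*) to 0.487 (*Dntt*) and 0.6155 (*Aqp11*). *Il7r* made up 318 of the 476 CPM of that mature sum, so the sum does not stand for mature cells alone. The other mature genes stood at 3.87 (*Ms4a4b*), 2.43 (*Gimap3*), 1.57 (*S1pr1*) and 1.41 (*Ccr7*) times WT. In KO1308 the double-positive and mature sums stood at 0.591 and 2.48 times WT.

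In the medulla all 7 double-positive genes were past 1.5-fold below WT in both KO sections, where 18.5% and 15.5% of all genes were, summing to 589 CPM in KO1134, 1270 in KO1308 and 4186 in WT. Mature genes summed to 1074, 918.5 and 526 CPM, with 4 of 5 and 2 of 5 past 1.5-fold above WT, where 17.7% and 23.0% of all genes were. The low *Bcl11b*, *Tcf7* and *Ikzf1* of the KO medulla thus stood beside low double-positive genes, and the part of the thymocyte mix in the member levels was not tested.

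**Figure D4:**
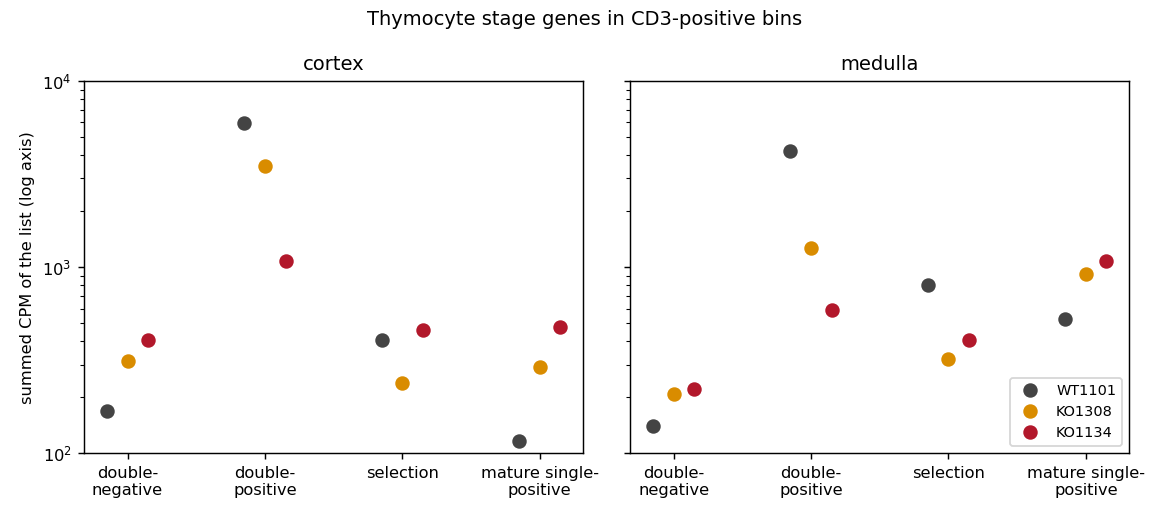
Summed CPM (log axis) of 4 lists of thymocyte stage genes in CD3-positive bins of the cortex (left) and medulla (right) in WT1101 (grey), KO1308 (orange) and KO1134 (red), 1 point for each section. Double-positive genes stand at 5943 CPM in WT cortex, 3514 in KO1308 and 1083 in KO1134, and double-negative genes run the other way, at 169.5, 312 and 406 CPM.

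Within the cortex the members varied from place to place, which was described over areas of 10 × 10 bins (270 µm a side) with at least 30 CD3-positive cortex bins. Across the 79 areas of KO1308, *Bcl11b* ran from 144 to 939 CPM with a median of 527, and it was high where *Cd8a* was high (r = 0.81, Spearman's rho = 0.80). *Tcf7* followed *Cd8a* less closely (r = 0.62, rho = 0.64), and *Lef1* did not track it (r = 0.11, rho = 0.09). Areas of a section share a library and differ in depth and CD3 content: *Bcl11b* of KO1308 had r = -0.50 with UMIs per bin, r = 0.66 with CD3 genes and r = -0.44 with myeloid genes, and the part of these was not tested. In the 212 areas of WT, *Bcl11b* ran from 266 to 1435 CPM and had r = 0.60 with *Cd8a*. In the 64 areas of KO1134 it ran from 118 to 393 CPM, all of it below the median area of KO1308, and had r = -0.19.

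*Runx3* ran from 14.8 to 169 CPM across the areas of KO1134, with a median of 81.8, against medians of 16.4 in KO1308 and 5.51 in WT. Its correlation with *Cd8a* was r = -0.04 in KO1134, where *Cd8a* was low throughout, and r = -0.29 in KO1308. With the myeloid genes *Runx3* had r = 0.07 in KO1134, r = 0.41 (rho = 0.29) in KO1308 and r = 0.20 in WT. The part of myeloid cells in this was not tested. *Lef1* had a median of 56.4 CPM over the areas of KO1134 and a highest area of 123 CPM, below the median areas of KO1308 (232) and WT (197). *Gata3* ran from 49.2 to 286 CPM in KO1134, around a median of 169, so its high level was not that of a single area.

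**Figure D5:**
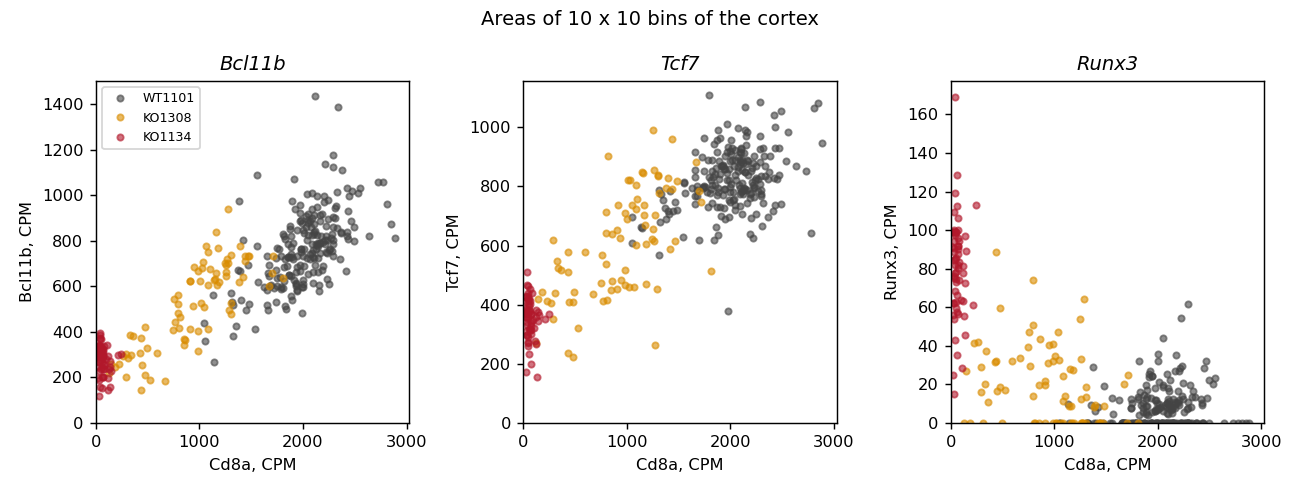
*Bcl11b*, *Tcf7* and *Runx3* (vertical axes, CPM) against *Cd8a* (horizontal axes, CPM) in areas of 10 × 10 bins of the cortex, 1 point for each of 64 areas of KO1134 (red), 79 of KO1308 (orange) and 212 of WT1101 (grey). KO1134 lies at the left edge with *Bcl11b* up to 393 CPM, KO1308 spreads toward WT, and *Runx3* is highest at the left edge.

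Of 35 other transcription factors of thymocytes, 34 had at least 100 UMIs over the sections in each zone. In the cortex 10 were past 1.5-fold lower and 11 higher in KO1134, with a median ratio of 1.01, where 20.2% of all genes were lower and 24.3% higher. In KO1308, 5 were lower and 10 higher, with a median of 1.04, where 9.98% and 26.1% of all genes were. In the medulla 16 were lower and 9 higher in KO1134 (median 0.692), where 18.5% and 17.7% of all genes were, and 13 lower and 9 higher in KO1308 (median 0.944), where 15.5% and 23.0% were. *Id3*, an inhibitor of E proteins induced by receptor signals, stood at 117 CPM in the cortex of KO1134, 126 in KO1308 and 215 in WT, and at 119, 123 and 238 CPM in the medulla. *Id2*, its relative on the same list, went the other way. It stood at 125, 179 and 59.6 CPM in the cortex and at 326, 410 and 152 CPM in the medulla.

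Of the factors named for lying past 1.5-fold from WT in both KO cortices, 4 were higher. *Lyl1*, a basic helix-loop-helix factor of progenitors, stood at 31.99 CPM in KO1134, 3.68 in KO1308 and 1.20 in WT, and *Lmo2*, its partner, at 12.5, 5.67 and 1.98 CPM. The KO1308 cortex values rest on 24 and 37 UMIs. In the medulla *Lyl1* stood at 15.4, 7.28 and 1.57 CPM and *Lmo2* at 16.6, 10.6 and 4.83 CPM. The part of other cells in the levels of both genes was not tested. *Hes1*, a Notch target that is also expressed in other cells, stood at 86.5, 40.3 and 14.8 CPM, and *Tox2*, a relative of *Tox*, at 28.3, 5.52 and 2.28 CPM. *Runx2*, the third Runx gene, was past 1.5-fold above WT in the medulla of both, at 26.3, 25.8 and 9.79 CPM. Of 3 named factors induced by receptor signals, *Egr1* was past 1.5-fold below WT in both zones of both KO sections, at 21.5, 55.2 and 134 CPM in the cortex and 44.6, 75.4 and 209.7 CPM in the medulla. *Egr2* stood at 1.87, 3.37 and 9.88 CPM in the cortex and at 4.03, 9.92 and 13.8 CPM in the medulla, where the low side of KO1308 was within counting error. *Nr4a1* stood at 27.3, 16.9 and 76.9 CPM in the medulla and at 27.4, 15.3 and 30.2 CPM in the cortex, where the low side of KO1134 was within counting error. *Satb1*, a chromatin organiser of double-positive cells, stood at 214, 649 and 2915 CPM in the medulla and at 218, 1598 and 3670 CPM in the cortex. *Lyl1* stood 26.7-fold (18.6 to 39.6) above WT in the cortex of KO1134 and 3.07-fold (1.73 to 5.38) in that of KO1308.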

How the data were processed

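Members and lists were chosen with earlier results of these data known. Reads were processed by the authors with BSTMatrix and aligned with STAR (genome build GRCm38 in the submitters' processing notes), and the authors deposited UMI counts per gene and spot, as whole numbers without normalisation, with spot positions. The aligner's strand setting is not given in the sources used here. Per the methods, permeabilisation lasted longer for KO than for WT sections, so capture and genotype cannot be told apart. Spot names came from 1 barcode set (345766 of 440671 in KO1134 recur in WT).

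Spots were summed in 27 µm bins, which were kept with at least 300 genes, at most 30% mitochondrial UMIs and a connected group of at least 200 bins. Folded tissue was kept. Cortex and medulla needed a score of at least 0.5 of the section mean. Ratios were compared with all genes of at least 100 UMIs over the sections. No test was possible, because there was 1 WT section. All 9 members, and other factors past 1.5-fold on the same side of WT in both KO sections (up to 6 a zone) with *Id3*, are named, and stage genes where a sentence turns on them. *Id2* was added beside *Id3* after seeing the data. From the lists, 1 factor and 1 listed stage gene are not reported here and were left out of counts and list sums. Areas, the *Trbc1* share and the 4-fold zone margin were chosen after seeing the data. Alternatives covered bin width, filters, CD3 rule, zones, denominator and thinning. Python 3.11.15, numpy, scipy and pandas were used, and the computations were tested on simulated data.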

Additional observations from a re-analysis of the deposited data

Results flagged for a closer look

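*Zbtb7b* lay above WT in the cortex and below WT in the medulla in both KO sections. The ratios of KO1134 and KO1308 to WT were 1.48 and 1.53 in the cortex and 0.695 and 0.744 in the medulla. The difference between the zones was not tested, since there was 1 WT section, and both KO sections share it. Per CD3 UMI the medulla ratios were above 1, at 1.35 and 1.36. The lowest cortex ratios over the settings were 1.13 in KO1134, after thinning, and 1.08 in KO1308, with the 4-fold zone margin.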

How the results depend on the processing

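No paired analysis was possible because the groups share no replicate number and no test was made. Over 17 other settings, 1071 values of 63 member ratios were recomputed. Of these, 800 lay within the counting interval of the reported value, 248 lay outside it without being counted as reversed, and 23 turned direction. Some ratios whose own interval held 1 also crossed 1 per CD3 UMI and are not among the 23. In the KO1134 sections *Tox* of the cortex went from 0.956 to 2.25 and *Gata3* of the medulla from 0.900 to 1.90. In the KO1308 cortex *Gata3* went from 0.963 to 1.52 and *Runx1* from 0.996 to 1.44. *Runx3* of the KO1134 cortex stayed between 9.57-fold and 25.7-fold above WT. Of the 23 that turned direction, 19 came with counting per CD3 UMI, where the denominator itself was lower in the KO sections. CD3-negative bins were counted there too. In the cortex these 19 gave *Tcf7* 1.03, *Runx1* 2.11 and *Ikzf1* 1.29 in KO1134, and *Bcl11b* 1.01, *Tcf7* 1.04, *Tox* 1.10 and *Ikzf1* 1.06 in KO1308. In the medulla they gave *Runx1* 1.59, *Zbtb7b* 1.35, *Tox* 1.15 and *Ikzf1* 1.03 in KO1134, and *Lef1* 1.02, *Gata3* 1.31, *Runx1* 1.42, *Zbtb7b* 1.36, *Tox* 1.05 and *Ikzf1* 1.01 in KO1308. From cortex to medulla *Ikzf1* came to 1.01 in WT and *Tox* to 1.23 in KO1308. With zones scaled to WT, *Runx1* of the KO1308 medulla came to 1.01. With bins thinned to 500 UMIs and called CD3-positive from the thinned counts, *Tox* from cortex to medulla in WT came to 0.974. *Lef1* from cortex to medulla in KO1134 came to 0.915 with 50 µm bins and 0.699 without *Ccl21a*. The cause was not tested for the last 4.

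Per CD3 UMI, 1 member was past 1.5-fold lower in the KO1134 cortex, 2 in its medulla, 0 in the KO1308 medulla and 0 in the medulla of both. Over all bins whatever their CD3 count, 1 member was lower in the KO1308 cortex and 1 in the cortex of both, and after thinning 2 and 1. Leaving out a KO section gave counts of 0 to 4 for the cortex of both and 5 to 6 for the medulla of both: without KO1308 the 4 of KO1134 remain, and without KO1134 0. In KO1134, 2 members were higher in medulla than cortex with 20 µm bins, at least 2 CD3 UMIs, a 5 × 5 window, zones from thymocyte genes, zone margins of 2 or 4, lymph-node-like bins kept, or thinning. Depth limits *Zbtb7b* and *Runx3* most, with 94 and 122 UMIs in the KO1308 cortex.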

Other observations

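Outside both zones, CD3-negative bins of KO1308 held *Zbtb7b* at 57.2 CPM (43.0 to 74.6, 54 UMIs), above both of its zones, while *Runx3* stood at 2.12 CPM (2 UMIs) and *Bcl11b* at 27.5 CPM there. In the CD3-positive lymph-node-like bins of KO1134, *Zbtb7b* stood at 43.6 CPM, *Runx3* at 41.1, *Gata3* at 39.2 and *Lef1* at 229.5 CPM.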
